A study of Homo sapiens with 12 samples.

Results

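The 10 genes described here encode the subunits of the transcription factor NF-κB (NFKB1, NFKB2, RELA, RELB and REL), its inhibitor proteins (NFKBIA, NFKBIB, NFKBIE and NFKBIZ) and the ubiquitin-editing brake A20 (TNFAIP3). They were chosen by name, and each had 1 of the 58735 rows of the deposited table of RNA-sequencing counts. RNA came from THP1, an established human monocytic cell line, in 4 groups of 3 libraries. THP1 cells were grown for 24 h alone (mono-culture) or above a transwell membrane with 1 µm pores, over control endothelial cells (ECs), over ECs made senescent with the DNA-damaging drug etoposide (senECs), or over senECs that had also received EGCG, a green tea catechin. In the co-cultures each well held 400000 THP1 cells and 500000 ECs. The THP1 cells of all groups, mono-culture included, were then given 100 ng/ml LPS for 2 h, so no group measures unstimulated cells. The replicates carry the numbers 1 to 3 in mono-culture and over control ECs, and the numbers 1, 2 and 5 over senECs, EGCG-treated or not.

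NF-κB is a dimer of Rel-family proteins that is held inactive in the cytoplasm by IκB proteins and is released when the IκB kinases respond to signals such as LPS binding to Toll-like receptor 4. RELA, REL and RELB carry transactivation domains, while NFKB1 and NFKB2 encode precursors (p105 and p100) that are processed to the DNA-binding subunits p50 and p52. In monocytes NF-κB drives cytokine genes and also induces several genes of its own feedback loops, among them NFKBIA, NFKBIE, TNFAIP3, NFKB1, NFKB2 and RELB.

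The start sites of most of these genes hold the letters that NF-κB dimers are known to bind. Windows of 300 bases (250 before a RefSeq transcript start and 50 from it on, assembly GRCh38.p14) were at hand for 8 of the 10 genes, not for RELB and NFKBIE, and were searched on both strands for the κB consensus element. A match lay in at least 1 window of 7 genes, and in neither window of RELA, while 7.09% of the 27305 genes with a window hold one. Counted by window, 9 of the 14 windows of these genes hold a match, beside 5.91% of all 35116 windows. A match is a description of letters and not a measured binding site. One stretch per gene is printed, and both matches for TNFAIP3, as the strand of the gene from 5′ to 3′ with the match, or overlapping matches, in capitals.
NFKB1, chr4:102501300-102501328, plus strand, the first capital 49 bases before the start: cgacgtcagtGGGAATTTCCagccaggaa
NFKB2, chr10:102394462-102394490, plus strand, 107 bases before: aaacgtcatGGGAATTCCCCcctccgggg
REL, chr2:60881518-60881546, plus strand, 47 bases before: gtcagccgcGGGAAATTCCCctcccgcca
NFKBIA, chr14:35404811-35404840, minus strand, 81 bases before: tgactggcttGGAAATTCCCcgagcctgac
NFKBIB, chr19:38899932-38899951, plus strand, 28 bases before: ggcgtggtgGGGAATTTCCC
NFKBIZ, chr3:101827757-101827786, plus strand, 223 bases before: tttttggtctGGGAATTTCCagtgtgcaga
TNFAIP3, chr6:137867182-137867211, plus strand, 67 bases before: acgtgactttGGAAAGTCCCgtggaaatcc
TNFAIP3, chr6:137867194-137867223, plus strand, 55 bases before: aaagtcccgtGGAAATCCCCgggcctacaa
The stretches of NFKB1, NFKBIA, NFKBIB and NFKBIZ lie outside the annotated exons of their genes in GENCODE release 29, while those of NFKB2, REL and TNFAIP3 overlap an exon of at least 1 annotated transcript. For NFKB2 and NFKBIB the start meant is an alternative, downstream one. That start and the printed stretch lie within the span of the gene, and the window at the most upstream start held no match. The genes themselves (GRCh38, GENCODE 29) span chr4:102501329-102617302 for NFKB1, chr10:102394110-102402529 for NFKB2, chr11:65653596-65663094 for RELA, chr19:45001430-45038198 for RELB, chr2:60881521-60931610 for REL, chr14:35401511-35404749 for NFKBIA, chr19:38899700-38908893 for NFKBIB, chr6:44258166-44265788 for NFKBIE, chr3:101827991-101861022 for NFKBIZ and chr6:137867188-137883312 for TNFAIP3. Exons of RELA, NFKBIB (with SIRT2) and TNFAIP3 overlap an antisense gene and those of REL overlap a gene on its own strand. Whether the counting used strand is not given in the sources used here, so these 4 rows are less certain than the others.

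Libraries held between 15439836 and 22092600 counts, and the 10 genes together took between 0.218% and 0.351% of them. All 10 were well counted, from 495 counts for NFKBIB in its lowest library to 28312 for TNFAIP3 in its highest. No 2 replicates of a group were alike within sampling noise (chi-square of 9.23 to 33.7 per degree of freedom). Of 10 monocytic markers that fit the label, 10 were detected and 9 had a mean of at least 1 CPM (counts scaled to the library size after TMM) in every group. Their summed level was 1091 to 1174 CPM in mono-culture and 1084 to 1419 CPM in the co-cultures. Of 12 endothelial markers, MMRN1 had no count, CDH5 at most 1 count, EMCN at most 3 and ROBO4 at most 7 in any library. ERG averaged 0.406 CPM in mono-culture, 1.18 over control ECs, 0.960 over senECs and 0.729 over EGCG-treated senECs. In the same order VWF averaged 1.34, 1.07, 0.647 and 1.23 CPM, and ESAM 1.92, 2.00, 1.82 and 1.94 CPM. The endothelial sum was 21.8 to 27.9 CPM in mono-culture, which held no ECs, and 25.3 to 34.8 CPM in the co-cultures, with most of it from EGFL7 in every group. Fibroblast markers summed to 2.79 to 5.14 CPM over all libraries. Lymphocyte markers summed to 12.5 to 15.8 CPM in mono-culture and 17.1 to 29.5 CPM in the co-cultures, chiefly through NKG7, while CD3D and CD3E had no count and MS4A1 at most 1. In bulk samples, fewer cells of a type and less RNA per cell cannot be told apart.

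The feedback inhibitors, not the DNA-binding subunits, made up most of the RNA of this circuit. Per length (FPKM, the CPM divided by kilobases of merged exons), TNFAIP3 stood at 229 ± 49.2 FPKM and NFKBIA at 226 ± 38.8 FPKM (mean ± SD, n = 12). The order of these neighbours was not fixed, since each was the higher of the pair in 6 of the 12 libraries. With the length of the longest transcript, NFKBIA was the higher in all 12 libraries, with means of 344 against 244 FPKM. NFKBIE, the gene of IκBε, followed at 78.9 ± 14.6 FPKM, and its values did not overlap those of the genes above or below it, although they overlapped those of NFKB1 when the length of the longest transcript was used. NFKB1 had 37.3 ± 10.4 FPKM, NFKBIZ 33.9 ± 8.16 FPKM, RELB 28.8 ± 6.82 FPKM and NFKB2 20.3 ± 5.01 FPKM, with overlap between each and the next. The lowest levels were those of NFKBIB with 15.5 ± 2.37 FPKM, RELA with 14.6 ± 1.23 FPKM and REL with 8.77 ± 2.22 FPKM. The value of REL rests on the longest exon model of the list, of 13170 bases. Summed per length, the 3 classical inhibitors (NFKBIA, NFKBIB and NFKBIE) exceeded the 5 subunits in every library, by a factor of 2.52 to 3.50. That ratio was 3.23, 2.90 and 2.54 in the mono-culture libraries, 3.50, 2.85 and 2.96 over control ECs, 3.29, 2.69 and 3.05 over senECs, and 3.17, 2.74 and 2.52 over EGCG-treated senECs, so that the groups overlapped.

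**Figure D1:**
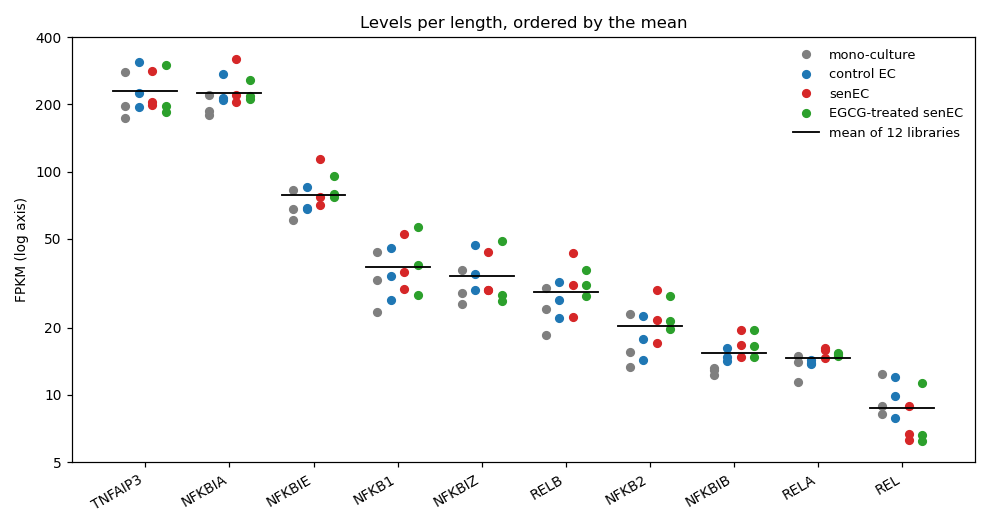
Level per length of merged exons of each gene in FPKM on a log axis, with 1 point per library, coloured by group, and a black line at the mean of the 12 libraries. TNFAIP3 and NFKBIA share the top with means of 229 and 226 FPKM, NFKBIE follows alone at 78.9 FPKM, and REL is lowest at 8.77 FPKM.

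Among the subunits, NFKB1, NFKB2 and RELB varied together from library to library, RELA varied least, and REL differed in its order of the replicates over senECs. Values are given in CPM for the replicates in the order of their numbers. NFKB1 measured 147, 205 and 274 in mono-culture, 167, 213 and 285 over control ECs, 187, 223 and 330 over senECs, and 176, 240 and 354 over EGCG-treated senECs. Replicate 1 was the lowest and replicate 3 or 5 the highest library in each group, and the 4 groups overlapped. NFKB2, whose p100 precursor also acts as an inhibitor, showed the same ranking, with 59.6, 70.1 and 103 in mono-culture, 64.5, 80.2 and 102 over control ECs, 76.9, 97.1 and 132 over senECs, and 88.7, 96.1 and 124 over EGCG-treated senECs. RELB, its usual partner, measured 56.6, 73.4 and 91.6 in mono-culture, 67.2, 80.7 and 97.6 over control ECs, 67.6, 94.2 and 132 over senECs, and 83.8, 94.5 and 110 over EGCG-treated senECs. Replicate by replicate, NFKB2 and RELB were at their lowest in replicate 1 of mono-culture, and their groups overlapped. RELA, the main transactivating subunit after LPS, kept within 76.8, 62.7 and 81.5 in mono-culture, 76.1, 75.4 and 78.0 over control ECs, 80.2, 86.7 and 88.5 over senECs, and 83.9, 81.6 and 83.2 over EGCG-treated senECs. Its highest library was 1.41 times its lowest, the smallest such ratio of the 10 genes, against 2.41 for NFKB1. All RELA values with senECs or EGCG-treated senECs lay above all those with control ECs, as did those of 5.31% and 4.04% of all genes tested. REL, the c-Rel subunit of blood cells, measured 117, 108 and 163 in mono-culture, 104, 131 and 159 over control ECs, 117, 87.7 and 82.8 over senECs, and 86.8, 81.6 and 148 over EGCG-treated senECs. The libraries below 100 CPM were those of replicates 2 and 5 with senECs and replicates 1 and 2 over EGCG-treated senECs, while the remaining libraries of these groups fell among the values of mono-culture and control ECs.

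The inhibitors split in a similar way, with NFKBIB apart from the rest. NFKBIA, which encodes IκBα, measured 425, 446 and 522 in mono-culture, 508, 495 and 649 over control ECs, 521, 486 and 754 over senECs, and 516, 500 and 608 over EGCG-treated senECs. NFKBIE measured 156, 175 and 213 in mono-culture, 177, 176 and 221 over control ECs, 183, 198 and 295 over senECs, and 199, 206 and 246 over EGCG-treated senECs. Both were highest in replicate 5 over senECs, and neither separated the groups. NFKBIB, the gene of IκBβ, measured 30.8, 28.5 and 29.9 in mono-culture, 34.3, 33.0 and 37.6 over control ECs, 34.3, 39.0 and 45.6 over senECs, and 34.4, 38.5 and 45.2 over EGCG-treated senECs. All 9 co-culture libraries lay above all 3 mono-culture libraries, which held for NFKBIB alone among the 10 genes and, in that direction, for 1.77% of all genes tested. NFKBIZ, the nuclear IκBζ that co-activates secondary response genes, measured 150, 170 and 213 in mono-culture, 174, 204 and 276 over control ECs, 174, 175 and 257 over senECs, and 156, 165 and 288 over EGCG-treated senECs. TNFAIP3 measured 875, 992 and 1412 in mono-culture, 985, 1137 and 1563 over control ECs, 1001, 1040.5 and 1426 over senECs, and 936, 998 and 1517 over EGCG-treated senECs. NFKBIZ and TNFAIP3 overlapped between all groups and were highest in replicate 3 or 5 of each.

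**Figure D2:**
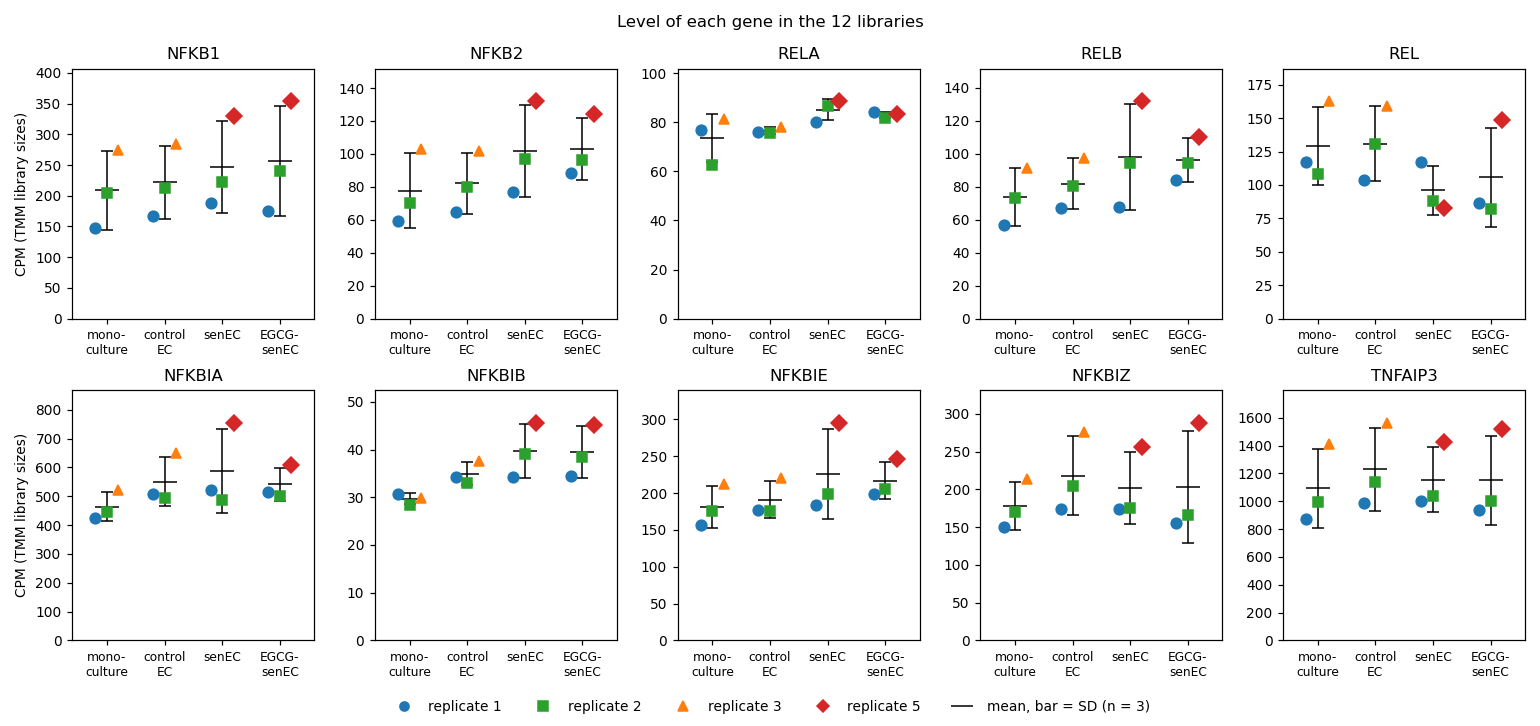
CPM of the 10 genes in each library, with 1 panel per gene, the groups along the horizontal axis, the marker showing the replicate number, and a black line with a bar for the group mean and SD (n = 3). In 7 panels (NFKB1, NFKB2, RELB, NFKBIA, NFKBIE, NFKBIZ and TNFAIP3) replicate 3 or 5 is the highest point of all 4 groups, and NFKBIB is the panel in which the mono-culture points lie below all others.

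Whether senescence of the ECs altered this circuit in the monocytes was asked by comparing the co-cultures over senECs and over control ECs. None of the 10 genes differed past the threshold (edgeR's quasi-likelihood test, Benjamini-Hochberg adjusted p of 0.05 over 25873 genes), and neither did any other gene, a background of 0%. DESeq2 also called 0 of the 10. At an unadjusted p of 0.05, 1 of the 10 passed beside 6.61% of all genes. That gene was REL, which was lower with senECs by a log2 fold change of -0.45 ± 0.21 (SE, 95% interval -0.88 to -0.02, edgeR adjusted p = 0.728). NFKB2 had a log2 fold change of 0.31 ± 0.20 (edgeR adjusted p = 0.751), RELB of 0.26 ± 0.20 (0.792) and NFKBIE of 0.24 ± 0.16 (0.752). For RELA, whose groups did not overlap, the log2 fold change was 0.15 ± 0.10 with an interval of -0.06 to 0.37 and an edgeR adjusted p of 0.755. TNFAIP3 and NFKBIZ had the other sign, with -0.09 ± 0.20 and -0.11 ± 0.21. The median over the 10 genes was 0.15, beside -0.0066 over all genes tested. Single libraries moved these values. With 1 library left out, 6 of the 10 genes changed sign in at least 1 fit, while REL (-0.62 to -0.29) and RELA (0.12 to 0.20) kept theirs. Without replicate 5 with senECs the median was -0.064 and the fitted values of 4 of the 10 genes changed sign, and without replicate 3 over control ECs the median was 0.23 and those of 2 genes did. That of NFKB2 ranged from 0.084 to 0.49 with 1 library left out.

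The effect of EGCG on the senECs was read from the comparison of co-cultures with EGCG-treated senECs and with senECs. Again 0 of the 10 genes and 0% of all genes passed edgeR's adjusted threshold, DESeq2 called 0 of the 10, and 0 of the 10 passed an unadjusted p of 0.05, beside 2.22% of all genes. The fitted log2 fold changes ran from -0.12 ± 0.15 for NFKBIA to 0.14 ± 0.21 for REL, with a median of -0.0068 against 0 over all genes. Those of NFKBIB and TNFAIP3 were within 0.01 of 0 and changed sign with DESeq2's size factors. The 95% intervals bound what these libraries could show: -0.25 to 0.17 for RELA, -0.43 to 0.19 for NFKBIA, -0.27 to 0.25 for NFKBIB, -0.43 to 0.41 for TNFAIP3 and -0.46 to 0.57 for NFKB1, the widest of the 10. Set against control ECs directly, EGCG-treated senECs gave 0 of 10 calls by edgeR, also a background of 0%, with 0 of the 10 genes at an unadjusted p of 0.05 beside 4.55% of all genes and 0 calls by DESeq2.

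Co-culture as such was compared with mono-culture through the mean of the 3 co-culture groups. In the fit of group alone, none of the 10 genes passed edgeR's adjusted threshold, which 0.723% of all genes did. DESeq2 called 0 of the 10 too. NFKBIB had the largest difference, with all 9 co-culture libraries above mono-culture and a log2 fold change of 0.35 ± 0.10 (SE, 95% interval 0.13 to 0.57, edgeR adjusted p = 0.179). NFKBIA had 0.27 ± 0.12 (95% interval 0.01 to 0.53, edgeR adjusted p = 0.444). These were the 2 genes at an unadjusted p of 0.05, beside 10.7% of all genes. RELB had 0.31 ± 0.16 and NFKB2 0.29 ± 0.17, with edgeR adjusted p-values of 0.525 and 0.567. Of the 10 genes, 9 had a fold change above 0, as did 47.6% of all genes, the exception being REL with -0.23 ± 0.17, and their median was 0.22 beside -0.017 over all genes. Without replicate 1 of mono-culture that median was 0.13, and without replicate 3 it was 0.36. These genes covary across libraries, so the 9 signs are not 9 separate observations. Counted for each co-culture alone, edgeR called 0 of the 10 over control ECs (0.143% of all genes), 0 over senECs (0.309%) and 0 over EGCG-treated senECs (0.213%), and DESeq2 also called 0 in each. At an unadjusted p of 0.05 these comparisons held 0, 3 (NFKBIA, NFKBIB and REL) and 1 (NFKBIB) of the 10, beside 6.52%, 11.0% and 8.58% of all genes. NFKBIB stood at 0.41 ± 0.13 both with senECs and with EGCG-treated senECs. The test for any difference among the 4 groups called 0 of the 10 by edgeR (0.189% of all genes) and 0 by DESeq2, with 1 of the 10 and 7.06% of all genes at an unadjusted p of 0.05. All these comparisons share the mono-culture libraries. The groups with senECs, EGCG-treated or not, share only the replicate numbers 1 and 2 with mono-culture and control ECs. With the number as a further term, comparisons across these groups therefore rest on those numbers. In that fit, edgeR called NFKB2 and RELB for the mean of the co-cultures, beside 3.18% of all genes. Their log2 fold changes were 0.32 (edgeR adjusted p = 0.00884) and 0.30 (edgeR adjusted p = 0.0196). That fit had prior degrees of freedom of 1195 beside 5 residual ones. With the number as a term and edgeR's own filter on low counts, 1 of the 10, NFKB2, was called for this mean, beside 3.22% of all genes. DESeq2 with the number as a term called 3 of the 10, beside 2.43% of all genes. Whether the numbers pair libraries is not stated.

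**Figure D3:**
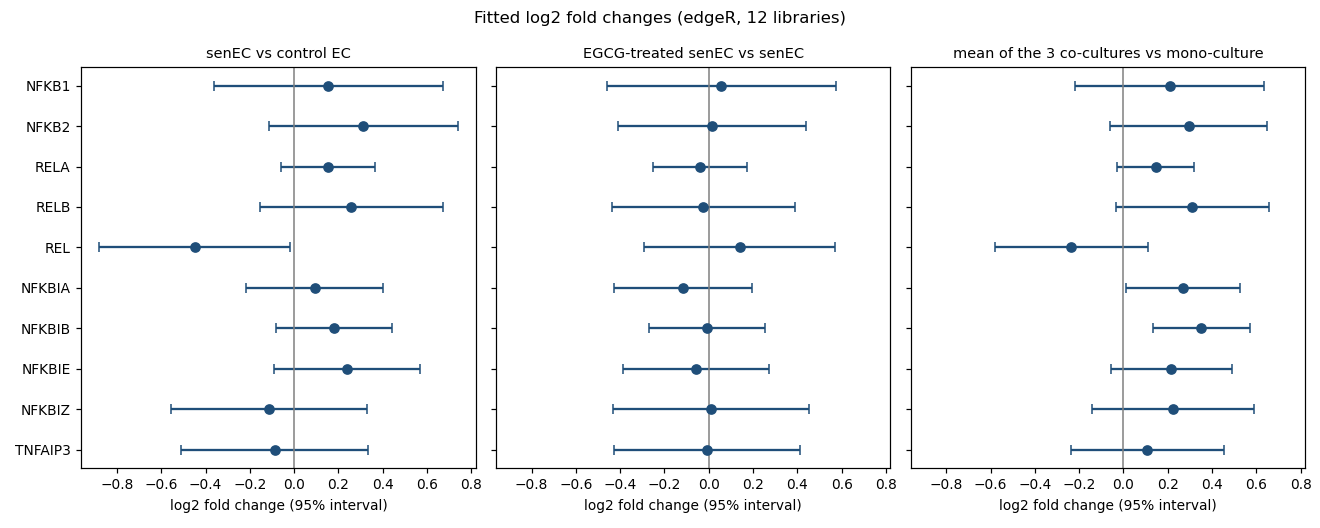
Fitted log2 fold change of each gene (points) with its 95% interval (bars) in 3 comparisons, from edgeR's fit of all 12 libraries. REL is the point farthest below 0 in the comparison of senECs with control ECs at -0.45, every interval crosses 0 in the comparison of EGCG-treated senECs with senECs, and NFKBIB and NFKBIA are the intervals above 0 in the comparison of co-cultures with mono-culture.

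More of these genes were called for the replicate number than for the culture condition. In a fit of group and replicate number (1, 2, 3 and 5 as 4 levels), edgeR called 8 of the 10 genes for the number (9 at an unadjusted p of 0.05, beside 18.2% of all genes), against 9.61% of all genes tested and 19.7% of the 9351 genes with a mean of at least 10 CPM. The same fit called 1 of the 10, NFKB2, for any difference among the groups, beside 2.84% of all genes. For the mean of the co-cultures it called 2, NFKB2 and RELB, beside 3.18%. What the libraries of a number have in common is not stated. NFKB1 had the largest differences, with replicate 3 above replicate 1 by 0.82 and replicate 5 above it by 0.93 on the log2 scale (adjusted p = 3.79e-24). For NFKB2 these differences were 0.71 and 0.64, for RELB 0.62 and 0.68, for TNFAIP3 0.65 and 0.63, for NFKBIZ 0.55 and 0.76, for NFKBIE 0.38 and 0.50 and for NFKBIA 0.30 and 0.41. RELA (0.11 and 0.02, edgeR adjusted p = 0.857) and NFKBIB (0.11 and 0.34, edgeR adjusted p = 0.228) did not pass. REL passed at an edgeR adjusted p of 8.99e-06, but its replicates did not keep 1 order, since replicate 5 was its lowest library with senECs and its highest with EGCG-treated senECs. The p-values of this fit rest almost wholly on a spread shared by all genes (prior degrees of freedom of 1195 beside 5 residual ones). With edgeR's own filter on low counts the prior was 14.4, and 7 of the 10 genes were called beside 8.89% of 17319 genes, with adjusted p-values from 2.10e-07 for NFKB1 to 0.00269 for NFKBIA. REL was not among them (adjusted p = 0.143), nor with DESeq2 (0.676). TMM factors, which correct for library composition, were 1.01 to 1.04 in the replicates numbered 1 and 0.912 to 1.01 in those numbered 3 or 5. Their part in the result was not tested.

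**Figure D4:**
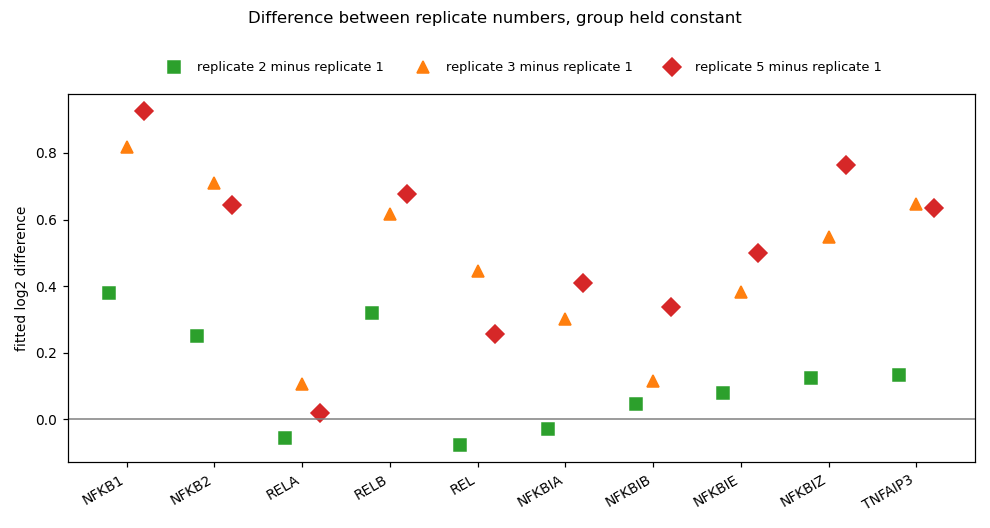
Fitted log2 difference of replicates 2, 3 and 5 from replicate 1, with the group held constant, for each gene. Replicates 3 and 5 lie above replicate 1 by 0.82 and 0.93 for NFKB1 and by 0.30 and 0.41 for NFKBIA, and close to 0 for RELA with 0.11 and 0.02.

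The spread within groups can be set beside that between groups, though the 2 are unlike measures. Spans between groups are of means of 3 libraries, which averaging narrows, and those within groups are of single libraries. The spread within groups also holds variation other than that by replicate number. For TNFAIP3 the 4 group means of log2(CPM + 2) spanned 0.17, while the libraries of a group spanned 0.68 (median of the 4 groups), and for NFKB1 these spans were 0.28 and 0.85. For NFKBIZ they were 0.28 and 0.61, and for RELB 0.39 and 0.60. The span between groups was the wider one for NFKBIB, with 0.38 and 0.28, and for RELA, with 0.21 and 0.09. By SD, the group means of RELA varied by 0.098 and its libraries within groups by 0.10, so that the difference for RELA depends on the measure.

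Across the 12 libraries most of these genes rose and fell together. Pearson's r of log2(CPM + 2) was 0.97 between NFKB2 and RELB, 0.97 between NFKBIZ and TNFAIP3, 0.95 between NFKBIE and RELB and 0.92 between NFKB1 and NFKB2. Such values describe 12 libraries that share groups and replicate numbers, and they are given without a test. REL had r between -0.24 and 0.27 with the other genes except NFKBIZ (0.52) and TNFAIP3 (0.56). With the group means removed, its r was 0.25 to 0.68, with 0.54 for NFKB1 and 0.68 for both NFKBIZ and TNFAIP3. RELA was closest to NFKBIB (0.70) and had 0.37 with NFKB1, the subunit it pairs with in the classical dimer. After removal of the group means, RELA had 0.38 with NFKBIB and 0.25 with NFKB1, and was closest to NFKB2 (0.45). Outside the list, among 9341 genes with a mean of at least 10 CPM, the gene most like NFKB1 was SOD2 (r = 0.99), the mitochondrial superoxide dismutase, whose symbol has 2 rows in the table and so a less certain count. CD99L2 was the gene most like both NFKB2 (0.98) and RELB (0.97). For RELA it was BRD2 (0.92), for REL GPATCH2L (0.95), for NFKBIA SMIM3 (0.94), for NFKBIB IL4R (0.97), for NFKBIE ID2 (0.97), for NFKBIZ PDE4B (0.96) and for TNFAIP3 FOSL2 (0.97).

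**Figure D5:**
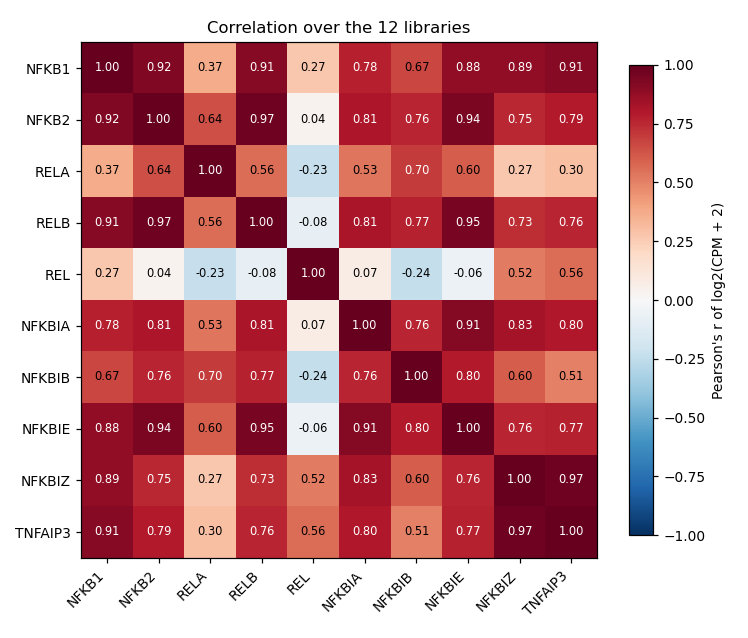
Pearson's r of log2(CPM + 2) over the 12 libraries for each pair of the 10 genes, with red for positive and blue for negative values. NFKB2 with RELB and NFKBIZ with TNFAIP3 reach 0.97, while the row of REL runs from -0.24 to 0.56.

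Around the 10 genes, the lists of the pathway were read against the 9.61% of all genes, and 19.7% of those with a mean of at least 10 CPM, that edgeR called for the replicate number. Of 3 further IκB relatives, BCL3, a nuclear co-regulator of p50 and p52 dimers, was the only gene of the pathway lists that edgeR called between groups in the fit of group alone. It measured 67.1 ± 10.7 CPM in mono-culture, 105 ± 7.68 over control ECs, 128 ± 23.9 with senECs and 126 ± 8.02 over EGCG-treated senECs (SD, n = 3). The mean of the co-cultures was above mono-culture by a log2 fold change of 0.83 ± 0.11 (SE, edgeR adjusted p = 9.64e-04). In the IκB kinase complex and its activating kinases, 0 of 10 genes were called between any groups and 1 of 10, TBK1, for the replicate number (edgeR adjusted p = 0.0148), and their median log2 fold change in co-culture was -0.013. Of 8 genes for linear ubiquitin assembly and TRAF or cIAP ligases, 0 were called between groups and 3 (TRAF3, BIRC3 and BIRC2) for the replicate number. The 13 genes listed as ubiquitin-dependent brakes held 0 calls between groups in the fit of group alone and 5 for the replicate number. TNIP3 led these, with replicates 3 and 5 above replicate 1 by 1.84 and 2.18 on the log2 scale. Of 21 rows of NF-κB target genes (20 symbols, with 2 rows for SOD2), 0 were called between groups in the fit of group alone. For the replicate number 19 were called, against 8 of the 10 subunit and inhibitor genes. IL1B had the largest F, with replicates 3 and 5 above replicate 1 by 2.16 and 2.37, and in ICAM1 replicate 5 exceeded replicate 1 by 1.30, both more than in NFKB1 with 0.93. TNF had 0.76 for both replicates. The median log2 fold change of the target rows in co-culture was 0.21, beside 0.22 for the 10 genes, and in the comparison of EGCG-treated senECs with senECs it was -0.10, beside -0.0068. With the replicate number as a further term, edgeR called 7 of the 21 rows for the mean of the co-cultures, beside 3.18% of all genes.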

How the data were processed

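RNA-sequencing counts of THP1 cells were analysed in 4 groups of 3 libraries, mapped by the sample labels. Per gene symbol, the authors deposited raw counts of reads as whole numbers, with no normalization, from cleaned reads that HISAT2 had aligned. The submitters' processing notes name hg38, and the counting program and annotation are not given in the sources used here. All 57169 distinct symbols match GENCODE release 29, which gave positions and lengths. A further 4 columns match no described sample and were left out.

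Totals ranged from 15439836 to 22092600 counts. edgeR 4.0.16 (quasi-likelihood, TMM, Benjamini-Hochberg over all genes) in R 4.3.3 was fitted to all 12 libraries with the group as the only term, for the 25873 genes whose counts summed to at least 10. The study used DESeq2, run here (1.42.0) as an alternative. SE is the log2 fold change over the square root of F. P-values measure the spread between these libraries, since separate cultures are not stated, and with 3 against 3 libraries an exact permutation test cannot go below 0.1. Intervals and counts cover no error beyond that spread.

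The 10 genes, the 5 pathway lists and the 4 marker lists (monocytic, endothelial, fibroblast and lymphocyte) were chosen with earlier results of these data known. Named besides the 10 genes were, from each pathway list, up to 3 genes with the smallest p for co-culture and up to 3 for the replicate number (mean of at least 1 CPM), of which a selection is printed, any list gene called between groups, and the gene most alike to each. Whether the numbers pair libraries is not stated. For mono-culture and control ECs, deviations of same-numbered libraries from their group means correlated at 0.651, 0.109 and 0.531 over 9351 genes. Replicate 2 of mono-culture correlated at 0.212 with replicate 3 of control ECs. The fits were tested on simulated data, where that for the replicate number made more false calls at the main filter than with edgeR's own. Python 3.11.15 (pandas 2.3.3, numpy 2.4.6) made the tables and matplotlib 3.10.9 the figures.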

Additional observations from a re-analysis of the deposited data

How the results depend on the processing

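The counts of 0 calls between groups held with DESeq2, its size factors, both stricter filters, only the libraries compared, and each of the 12 libraries left out. With every gene that had a count, edgeR called 1 of the 10 genes in senECs against control ECs (REL, adjusted p = 0.0353, beside 0.328% of all genes), 3 in senECs against mono-culture (1.69%), 1 in EGCG-treated senECs against mono-culture (1.08%) and 2 in any group (1.83%), in a fit whose prior degrees of freedom were infinite. The calls for the replicate number numbered 7 or 8 of the 10 in each alternative, beside 6.63% to 11.3% of all genes. With lengths of the longest transcript, 6 of the 10 genes kept their rank, NFKBIA changing places with TNFAIP3 and RELA with NFKBIB, and TPM left all 10 in place.

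A replicate block holds the number as a term. The groups with senECs share only the numbers 1 and 2 with mono-culture and control ECs. With the numbers as 4 levels, comparisons across these groups therefore rest on those numbers. The block gave 2 calls, NFKB2 and RELB, in senECs (beside 2.74% of all genes) and EGCG-treated senECs (1.64%) against mono-culture. It gave the same 2 in the mean of the co-cultures against mono-culture (NFKB2 0.32, adjusted p = 0.00884, and RELB 0.30, adjusted p = 0.0196, beside 3.18% of all genes). In any group it gave 1, NFKB2, beside 2.84%. It changed no call of edgeR among the 10 genes in the other comparisons, control ECs against mono-culture included. Over all genes it called 0.591% in senECs against control ECs, where the fit without it called 0, the joined block 1.04% and the block in DESeq2 0.290%. In the pathway lists, edgeR's block called 7 of the 21 target rows in the mean of the co-cultures, 6 of them higher. They included ICAM1 (0.42, adjusted p = 3.47e-05) and, lower, TNF (-0.38, adjusted p = 7.26e-04). Against mono-culture it called 5 in senECs, 4 in EGCG-treated senECs and 2 in control ECs (1.81% of all genes). BCL3 and TNIP3 (0.81, adjusted p = 4.68e-07) were also called in the mean. Whether the numbers pair libraries is not stated for any groups. Deviations of same-numbered libraries correlated at 0.635, 0.0993 and 0.387 for senECs and EGCG-treated senECs, and at 0.651, 0.109 and 0.531 for mono-culture and control ECs. As a hint from the data, 8 of the 12 libraries correlated best with a library of their own number in another group, the others being the replicates 3 and 5, which correlated best with each other. The remaining blocks were chosen after seeing the data, except that with replicates 3 and 5 joined. NFKB2 was the 1 call in each of the same 4 comparisons with the block and edgeR's own filter (mean of the co-cultures 0.31, adjusted p = 0.0264) or at least 10 counts in every library (0.0248). In the order senECs, EGCG-treated senECs, mean and any group, edgeR's own filter gave 2.02%, 1.34%, 3.22% and 1.60% of all genes. At least 10 counts gave 2.58%, 1.78%, 4.06% and 1.97%. With the block in DESeq2 there were 3 calls in the mean of the co-cultures, beside 2.43% of all genes. NFKB2 was again the 1 call in senECs (1.75%) and in EGCG-treated senECs (1.24%) against mono-culture and in any group (1.58%). NFKBIZ was the 1 call in control ECs against mono-culture (0.29, adjusted p = 0.0371, beside 1.31%). With replicates 3 and 5 joined the block gave 1 call in senECs against control ECs (REL, -0.42, adjusted p = 0.0415), 6 in senECs (5.44% of all genes) and 4 in EGCG-treated senECs (3.02%) against mono-culture, 4 in the mean (1243 of all genes) and 6 in any group (4.67%). The cause of these differences was not tested.

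Some log2 fold changes changed sign. For EGCG-treated senECs against senECs, NFKBIB became 0.0025 with DESeq2, 0.0021 with its size factors, 0.0011 with edgeR's own filter, 0.011 with at least 10 counts in every library and 0.0078 with that filter and the block. TNFAIP3 became 0.0038 with DESeq2, 0.0038 with its size factors, 0.0023 with edgeR's own filter and 0.014 with at least 10 counts. In the replicate blocks (as 4 levels, joined, with edgeR's own filter, with at least 10 counts, in DESeq2) RELB became 0.015, 0.013, 0.022, 0.031 and 0.023 and NFKBIZ -0.023, -0.018, -0.016, -0.0075 and -0.015. With 1 library left out, the log2 fold changes of EGCG-treated senECs against senECs ranged from -0.25 to 0.32 for NFKB1, -0.15 to 0.25 for NFKB2, -0.23 to 0.25 for RELB, -0.19 to 0.31 for REL, -0.24 to 0.11 for NFKBIA, -0.12 to 0.11 for NFKBIB, -0.19 to 0.18 for NFKBIE, -0.33 to 0.22 for NFKBIZ and -0.26 to 0.17 for TNFAIP3. Those of senECs against control ECs ranged from -0.11 to 0.38 for NFKB1, 0.084 to 0.49 for NFKB2, -0.02 to 0.47 for RELB, -0.13 to 0.23 for NFKBIA, -0.0021 to 0.37 for NFKBIE, -0.32 to 0.093 for NFKBIZ and -0.27 to 0.12 for TNFAIP3. For the mean of the co-cultures, TNFAIP3 ranged from -0.029 to 0.33, the lowest without replicate 1 of mono-culture. Each of the 10 genes had at least 495 counts in each library.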
